A study of Rattus norvegicus with 13 samples.

Results

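Chemokines, interleukins and their receptors were followed across cultures of skin-derived precursors (SKPs) from 3 skin regions of the adult rat and cultures of mesenchymal stromal cells (MSCs). The genes were chosen by symbol, as those whose name on the array platform begins with Ccl, Cxcl, Ccr, Cxcr or Il and a digit, leaving out 1 CC receptor gene that also matches. They numbered 110 of the 14506 genes with a probe set of their own, and comprised 19 CC chemokine ligands, 12 CXC ligands, 8 CC receptors, 6 CXC receptors, 34 interleukins and 31 interleukin receptors. The decoy protein Il18bp and the receptor antagonist Il1rn, which carry interleukin symbols, were counted with the interleukins.

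Chemokines are small secreted proteins that bind receptors of the G-protein-coupled type and direct the movement of cells, most of all leukocytes, along a gradient. Interleukins act through receptors built from a binding chain and a signalling chain, and several families share a signalling chain, such as Il6st (gp130) for the IL-6 family, Il1rap for IL-1, IL-33 and IL-36, and Il2rg for IL-2, IL-7 and IL-15. Dermal fibroblasts and bone marrow stromal cells are known sources of Cxcl12, Ccl2, Il6 and Il7, and decoy receptors such as Il13ra2 and Il1r2 bind a cytokine without passing on the usual signal.

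SKPs are dermal cells of the adult skin that grow in culture as precursors with features of the neural crest, and the study set cells from dorsal trunk, ventral trunk and facial skin against each other and against MSCs. All cells came from adult Sprague Dawley rats and had been passaged 2 times. The series holds 13 arrays (Affymetrix Rat Gene 1.0 ST), with 3 independent isolates each of dorsal, facial and ventral SKPs and 4 isolates of MSCs and no treatment or genetic change named in the labels. The tissue that gave the MSCs, the culture media, and the age and sex of the animals are not stated by the sources used.

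Values are log2 expression values (RMA), on which 1 unit is a 2-fold difference. They compare a gene between arrays and do not rank different genes. A group was taken to be above background for a gene when its mean exceeded the 95th percentile of that group's means over 1105 olfactory receptor genes, which are not expected in such cells. For dorsal, facial and ventral SKPs and MSCs in turn, that level was 4.03, 4.03, 3.94 and 4.04. Differences were tested with limma over all 13 arrays, with p-values adjusted over the 14506 genes (Benjamini-Hochberg) and called under 0.05.

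Markers were read against the labels. All 10 fibroblast and stromal markers and all 6 SKP markers were above background in every group, and the mean of the SKP markers was 7.59 to 8.61 in 8 SKP arrays and 6.49 to 6.83 in the MSC arrays. Dorsal array 3 stood apart, with an SKP marker mean of 6.68 and a stromal marker mean of 9.64 against 10.95 to 11.56 on the other arrays. The mean of 20 macrophage and leukocyte markers was 7.28, 5.06 and 4.05 on dorsal arrays 1, 2 and 3, 7.76, 6.40 and 9.84 on the facial arrays, 5.28, 5.20 and 5.62 on the ventral arrays, and 4.06 to 4.74 on the MSC arrays. Of these markers, 16, 19, 16 and 14 were above background in dorsal, facial and ventral SKPs and in MSCs. Lymphocyte, mast cell and keratinocyte lists stayed near background, at 2.77 to 4.05 as list means over all arrays, and the endothelial list reached 4.98 to 5.47 on the ventral arrays only, against 3.61 to 4.43 elsewhere. These are bulk cultures, in which fewer cells of a type and less RNA per cell cannot be told apart.

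Of the 110 genes, 67 were above background in at least 1 group, 45 in all 4 groups and 43 in none. Those with no group mean above background included the classical lymphocyte products Il2, Il4, Il5, Il10, Il13, Il17a and Il17f, the interferon-induced chemokines Cxcl9 and Cxcl11, the neutrophil attractants Cxcl2 and Cxcl3 with their receptor Cxcr2, and Il1a. Single arrays could still lie above the level, as Cxcl3 did on MSC array 1 (4.90) and Il1a on facial array 3 (4.46). By role, 14 of 19 CC ligands, 8 of 12 CXC ligands, 3 of 8 CC receptors, 4 of 6 CXC receptors, 15 of 34 interleukins and 23 of 31 interleukin receptors were above background somewhere. Dorsal SKPs had 56 genes above background (50.9%), facial SKPs 57 (51.8%), ventral SKPs 61 (55.5%) and MSCs 52 (47.3%), where 71.9 to 72.8% of all genes were. Cxcl6 and Il6 were above background in MSCs alone, and Ccl3, Ccr1, Il13ra2, Il1b and Il2rg in all 3 SKP regions and not in MSCs. Ccl21 lay at the level itself, with a mean of 4.04 in MSCs against 3.95 in ventral SKPs, and does not separate the groups.

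**Figure D1:**
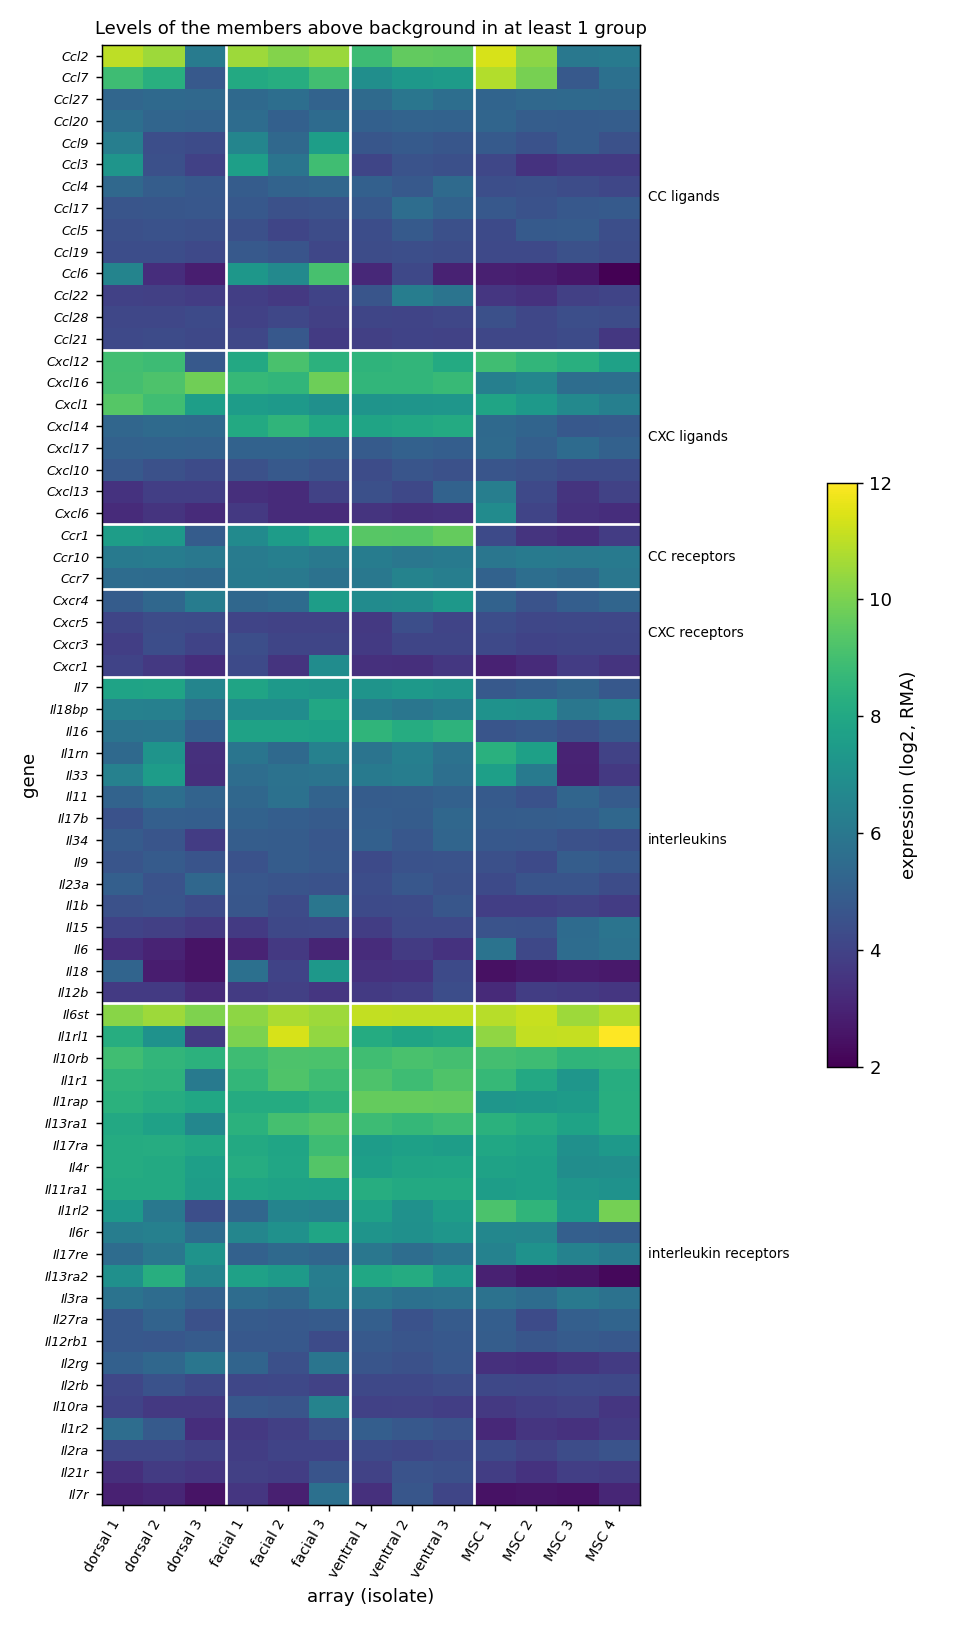
Log2 expression (colour) of the 67 genes above background in at least 1 group, by array (columns) and gene (lines of the map, grouped by role); colours compare arrays within a gene. Dorsal array 3 and MSC arrays 3 and 4 are dark for Ccl2, Ccl7, Il1rn and Il33, facial array 3 is bright for Ccl3, Ccl6 and Cxcr1, and Il13ra2 and Il16 separate SKPs from MSCs.

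Between all SKPs (the mean of the 3 regions) and MSCs, 23 of the 110 genes passed the test (20.9%), where 25.3% of all genes did. Of these, 16 were higher in SKPs (13.1% of all genes were) and 7 were lower (12.2% of all genes were). The arrays of both groups did not overlap for 10 of the 110, against 12.6% of all genes. The median difference was 0.07 over the 110 genes and -0.02 over all genes. By role, 3 CC ligands were higher and 1 lower, 2 CXC ligands were higher, 1 CC and 1 CXC receptor were higher, 3 interleukins were higher and 2 lower, and 6 interleukin receptors were higher and 4 lower. The count was 15 without ventral array 3, where 22.5% of all genes passed. It lay between 15 and 26 over all single arrays left out, with 20.4 to 27.7% of all genes. Each region was also set against the same 4 MSC arrays, so those 3 comparisons share their controls. Dorsal SKPs differed from MSCs in 16 of the 110 (16.5% of all genes did), facial SKPs in 22 (19.0% of all genes) and ventral SKPs in 19 (24.4% of all genes). The arrays did not overlap those of MSCs for 16, 24 and 33 of the 110 in dorsal, facial and ventral SKPs, where 22.5%, 30.1% and 37.9% of all genes were so. Of the 110, 7 passed with a higher level in all 3 regions, namely Ccl4, Cxcl16, Il7, Il16, Ccr1, Il2rg and Il13ra2 (681 of all genes did, 4.69%). Il6 and Il15 passed with a lower level in all 3 (689 of all genes did, 4.75%). With the leukocyte marker mean as a covariate, the facial calls of Ccl4 (adjusted p = 0.628), Ccr1 (0.132), Il2rg (0.147), Il6 (0.0851) and Il15 (0.284) were lost. Of all genes, 5.76% passed in facial SKPs with this covariate, against 19.0% without it. Over the alternatives, the facial difference was -2.48 to -1.77 for Il6 and -1.65 to -0.51 for Il15. It was 0.30 to 0.92 for Ccl4 and 2.13 to 4.13 for Ccr1.

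Among the CC ligands, the genes that differed from MSCs were Ccl6, Ccl3 and Ccl4, which were higher in SKPs, and Ccl28, which was slightly lower. Ccl3 and Ccl4 (macrophage inflammatory proteins 1-alpha and 1-beta) recruit monocytes and lymphocytes, and Ccl3 binds Ccr1. Ccl4 read 5.39, 4.96 and 4.74 on the dorsal arrays, 4.90, 5.17 and 5.31 on the facial arrays, 5.08, 4.78 and 5.46 on the ventral arrays, and 4.40, 4.45, 4.32 and 4.12 on the MSC arrays. Every SKP array lay above every MSC array, and the mean difference was small (0.77, SE 0.15, limma adjusted p = 0.0022). The differences from MSCs were 0.71, 0.80 and 0.79 in dorsal, facial and ventral SKPs. With the leukocyte marker mean as a covariate its adjusted p was 0.0675, within a range of 0.00119 to 0.0675 over the alternatives.

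Ccl6, a chemokine described in mouse myeloid cells, read 6.53, 3.30 and 2.83 on the dorsal arrays and 7.30, 6.69 and 9.10 on the facial arrays. It read 3.15, 4.17 and 2.97 on the ventral arrays and 2.89, 2.79, 2.59 and 1.95 on the MSC arrays. Only the facial arrays and dorsal array 1 stood well above background. The difference from MSCs was 5.14 in facial SKPs (SE 0.80, adjusted p = 0.000917), at least 12.6-fold against the background level of MSCs, and 2.56 over all SKPs (SE 0.63, adjusted p = 0.0101). Ccl3 read 7.21, 4.44 and 3.94 on the dorsal arrays, 7.65, 5.86 and 8.93 on the facial arrays, 4.08, 4.54 and 4.45 on the ventral arrays and 3.45 to 4.12 on the MSC arrays. Its difference from MSCs was 3.73 in facial SKPs (SE 0.75, adjusted p = 0.00489). Ccl9, the neighbour of Ccl6 on chromosome 10 and also a chemokine known from mouse, read 6.54, 5.38 and 7.61 on the facial arrays and 4.49 to 4.90 on the MSC arrays, a difference of 1.83 in facial SKPs (SE 0.51, adjusted p = 0.0265). Ccl5, Ccl9, Ccl6, Ccl3 and Ccl4 follow one another on that chromosome in the RefSeq annotation of GRCr8, and Ccl5 itself passed in no comparison.

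The high arrays of Ccl3, Ccl6 and Ccl9 were those with high macrophage and leukocyte markers, namely facial arrays 3, 1 and 2 and dorsal array 1. With the mean of those markers as a covariate, the facial difference from MSCs was 1.81 for Ccl6 (adjusted p = 0.143), 0.35 for Ccl3 (0.727) and -0.43 for Ccl9 (0.521). Over all SKPs it was 0.81 for Ccl6 (adjusted p = 0.218) and 0.15 for Ccl3 (0.755). Over the alternatives, the adjusted p in facial SKPs was 6.96e-05 to 0.143 for Ccl6, 0.00083 to 0.727 for Ccl3 and 0.0074 to 0.521 for Ccl9. The difference of Ccl3 over all SKPs (1.93, SE 0.59, adjusted p = 0.032) was lost in 11 of 24 alternatives, among them without each MSC array (0.053 to 0.0837), and without facial array 1 (0.0531), ventral array 2 (0.0548) or ventral array 3 (0.0542). The call of Ccl9 in facial SKPs was lost without facial array 1 (0.0721), facial array 3 (0.117), MSC array 2 (0.0587) or MSC array 4 (0.0621).

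Ccl2 and Ccl7, neighbours on chromosome 10 that both attract monocytes, did not pass in any comparison, and their spread between isolates was among the widest seen. Ccl2 read 11.00, 10.55 and 6.18 on the dorsal arrays, 10.55, 10.13 and 10.50 on the facial arrays, 8.87, 9.61 and 9.53 on the ventral arrays, and 11.38, 10.26, 5.99 and 6.07 on the MSC arrays. The MSC isolates thus fell into a high and a low pair, and dorsal array 3 lay with the low pair. The group means were 9.24 ± 2.66, 10.40 ± 0.23 and 9.34 ± 0.41 (SD, n = 3) in dorsal, facial and ventral SKPs and 8.43 ± 2.81 (SD, n = 4) in MSCs, and the SKP difference of 1.23 had an adjusted p of 0.468. Ccl7 followed the same arrays, with 8.89, 8.32 and 4.78 on the dorsal arrays and 10.84, 9.94, 4.81 and 5.68 on the MSC arrays (difference -0.14, adjusted p = 0.94). Ccl20, the ligand of Ccr6, was even across groups, with means of 5.02 to 5.36.

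Ccl22, which binds Ccr4 on T cells, was above background in ventral SKPs alone. It read 4.64, 6.23 and 5.85 there, 3.76 to 3.92 on the dorsal arrays, 3.64 to 4.01 on the facial arrays and 3.44 to 4.03 on the MSC arrays. The ventral arrays did not overlap any other group, and the ventral level exceeded that of MSCs at least 2.89-fold against background (log2 difference 1.84, SE 0.30, adjusted p = 0.000908). The differences between regions were -1.74 for facial minus ventral (SE 0.32, adjusted p = 0.00842) and -1.72 for dorsal minus ventral (SE 0.32, adjusted p = 0.0103). The latter was 0.0518 without ventral array 3, and the former 0.0576 with the leukocyte covariate. Ccl17, which binds the same receptor and lies 1 gene away on chromosome 19, read 4.76, 5.56 and 5.16 on the ventral arrays and 4.50 to 4.84 on all others. Its ventral difference from MSCs of 0.44 missed the threshold (adjusted p = 0.0648). The receptor Ccr4 was at background in every group. Endothelial markers were also highest on the ventral arrays, and their part in the level of Ccl22 was not tested.

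Among the CXC ligands, Cxcl16 and Cxcl14 were higher in SKPs than in MSCs. Cxcl16, a membrane-bound chemokine whose receptor is Cxcr6, read 9.03, 9.19 and 9.84 on the dorsal arrays, 8.69, 8.58 and 9.79 on the facial arrays, 8.58, 8.59 and 8.74 on the ventral arrays, and 6.32, 6.58, 5.56 and 5.62 on the MSC arrays. All 9 SKP arrays lay above all MSC arrays, by 2.98 on average (SE 0.26, adjusted p = 7.32e-06, 7.90-fold). The differences in dorsal, facial and ventral SKPs were 3.33, 3.00 and 2.62, and no pair of regions differed by the test. Dorsal array 3, low for many other chemokines, held the highest Cxcl16 value. Cxcr6 itself was not above background in any group.

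Cxcl14, a chemokine made by skin epithelium and fibroblasts, was low on every dorsal array and high on every other SKP array. It read 5.31, 5.45 and 5.40 on the dorsal arrays, 8.08, 8.56 and 8.01 on the facial arrays, 7.84, 7.98 and 8.10 on the ventral arrays, and 5.41, 5.24, 4.75 and 4.83 on the MSC arrays. Facial and ventral SKPs were high and dorsal SKPs overlapped MSCs. The difference was 2.83 for facial minus dorsal (SE 0.19, adjusted p = 1.09e-05) and -2.58 for dorsal minus ventral (SE 0.19, adjusted p = 1.93e-05), and both were called in all 25 alternatives. Facial and ventral SKPs exceeded MSCs by 3.16 and 2.92. The dorsal difference from MSCs, with values given above, was not called.

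Il16, a cytokine whose receptor is CD4 and which attracts CD4-bearing cells, followed a similar order. It read 5.85, 5.87 and 5.07 on the dorsal arrays, 7.77, 7.75 and 7.68 on the facial arrays, 8.55, 8.19 and 8.47 on the ventral arrays, and 4.65, 4.77, 4.48 and 4.83 on the MSC arrays. No groups overlapped, and facial arrays agreed to within 0.05 (SD, n = 3). Facial exceeded dorsal SKPs by 2.14 (SE 0.19, adjusted p = 0.000152), and dorsal minus ventral was -2.81 (SE 0.19, adjusted p = 1.66e-05), each called in all 25 alternatives. Against MSCs, the differences in dorsal, facial and ventral SKPs were 0.92, 3.05 and 3.72, and that over all SKPs was 2.56 (SE 0.14, adjusted p = 3.04e-07).

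The 250 bases upstream of the start of Cxcl14 (chr17:8322900-8323149, plus strand) and of Il16 (chr1:147116743-147116992, minus strand) are given here because both genes were low in dorsal SKPs and high in facial and ventral SKPs, and that of Il6 (chr4:5894576-5894825, minus strand) because Il6 was above background in MSCs alone. They are RefSeq sequences of the GRCr8 build, 5′ to 3′. Capitals mark a match to the AP-1 motif TGANTCA in the Cxcl14 and Il16 sequences and a match to the kappaB motif (GGGA and TTCC with any 2 bases between them) in that of Il6, each searched on both strands, and no window held overlapping matches to the 2 motifs.
Cxcl14: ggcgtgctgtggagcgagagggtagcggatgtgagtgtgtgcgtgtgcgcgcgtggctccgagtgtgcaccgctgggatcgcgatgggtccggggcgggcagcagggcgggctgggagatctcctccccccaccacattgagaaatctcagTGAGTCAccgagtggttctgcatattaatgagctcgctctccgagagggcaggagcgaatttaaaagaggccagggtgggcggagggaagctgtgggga
Il16: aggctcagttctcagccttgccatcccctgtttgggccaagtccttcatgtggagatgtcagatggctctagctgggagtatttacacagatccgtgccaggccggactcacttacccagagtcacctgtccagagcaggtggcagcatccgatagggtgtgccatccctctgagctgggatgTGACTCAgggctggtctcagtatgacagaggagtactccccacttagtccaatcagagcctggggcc
Il6: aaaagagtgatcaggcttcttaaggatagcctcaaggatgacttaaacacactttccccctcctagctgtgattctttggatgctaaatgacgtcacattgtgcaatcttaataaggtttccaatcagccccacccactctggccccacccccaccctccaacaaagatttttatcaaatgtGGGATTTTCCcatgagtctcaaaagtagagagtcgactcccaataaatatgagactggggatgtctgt
The Cxcl14 match TGAGTCA lay 99 to 93 bases upstream of the start and the Il16 match TGACTCA 67 to 61 bases upstream. An AP-1 match was found in 11 of 87 windows of the genes studied (12.6%) and in 6.34% of the 33469 windows of all genes. The Il6 match GGGATTTTCC lay 68 to 59 bases upstream, and a kappaB match was found in 7 of the 87 windows (8.05%), namely those of Ccl7, Ccr3, Cxcl1, Cxcl10, Cxcl11, Cxcl6 and Il6, and in 1.08% of all windows. Of the 110 genes, 84 had at least 1 window in the table. A match describes these letters only and does not show binding.

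Cxcl12, the ligand of Cxcr4 and a retention signal for haematopoietic cells, did not differ by the test. It read 8.99, 8.84 and 4.79 on the dorsal arrays, 8.04, 9.14 and 8.44 on the facial arrays, 8.49, 8.59 and 8.10 on the ventral arrays, and 8.95, 8.57, 8.32 and 7.71 on the MSC arrays (SKPs minus MSCs -0.23, SE 0.63, adjusted p = 0.833). Apart from dorsal array 3, all arrays lay between 7.71 and 9.14. Cxcl1, a neutrophil attractant, was highest in dorsal SKPs, with 9.35, 8.94 and 7.61 against 7.03 to 7.53 on the facial arrays, 7.17 to 7.25 on the ventral arrays and 6.33 to 7.83 on the MSC arrays. Dorsal SKPs exceeded MSCs by 1.56 (SE 0.40, adjusted p = 0.0203), with an overlap between dorsal array 3 and MSC array 1. The call was lost without dorsal array 1 (0.0842), dorsal array 2 (0.0726) or MSC array 4 (0.0538). Cxcl6 owed its MSC mean of 4.40 ± 1.64 (SD, n = 4) to MSC array 1, which read 6.81 where the other MSC arrays read 3.31 to 4.06.

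**Figure D2:**
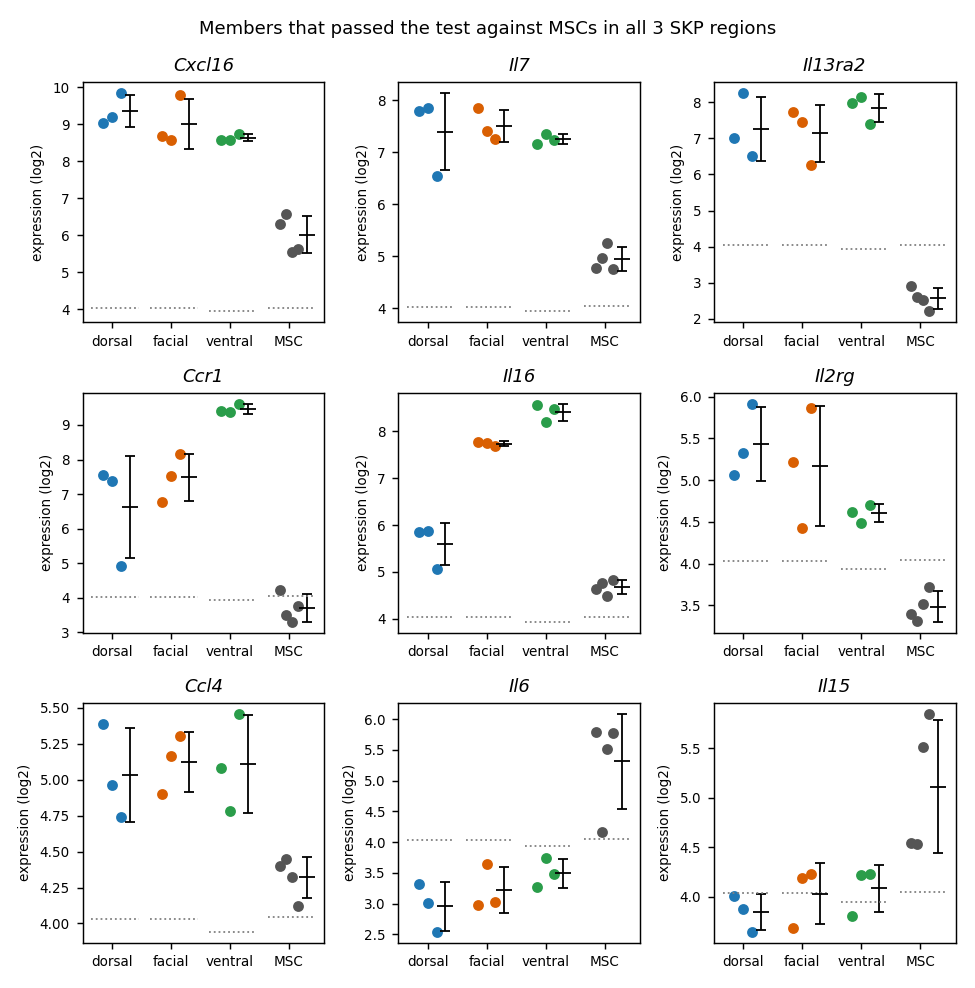
Log2 expression (vertical axes, each on its own scale) of the 9 genes that passed the test against MSCs in all 3 SKP regions; points are isolates, bars the group mean ± SD, and dotted lines the background level of each group. Points of Cxcl16, Il7, Il13ra2, Ccr1, Il16, Il2rg and Ccl4 lie higher in SKPs, and those of Il6 and Il15 higher in MSCs.

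Of the interleukins, Il16, Il7 and Il1b were higher in SKPs than in MSCs and Il6 and Il15 lower. Il7, the stromal growth factor of developing lymphocytes, read 7.79, 7.86 and 6.55 on the dorsal arrays, 7.85, 7.42 and 7.25 on the facial arrays, 7.16, 7.35 and 7.23 on the ventral arrays, and 4.77, 4.98, 5.26 and 4.76 on the MSC arrays. All SKP arrays lay above all MSC arrays, by 2.44 on average (SE 0.22, adjusted p = 9.41e-06, 5.43-fold), and the 3 regions differed from MSCs by 2.46, 2.56 and 2.31. Its receptor chain Il7r, by contrast, was at background in dorsal SKPs and MSCs and passed no test, with its highest value of 5.68 on facial array 3.

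Il6, the pleiotropic inflammatory cytokine, read 5.80, 4.16, 5.52 and 5.77 on the MSC arrays. It read 3.33, 3.00 and 2.54 on the dorsal arrays, 2.98, 3.65 and 3.02 on the facial arrays, and 3.27, 3.74 and 3.48 on the ventral arrays. Every SKP array was at background and every MSC array lay above it. The fitted difference was -2.09 (SE 0.28, adjusted p = 0.000223), and MSCs exceeded the SKP background level at least 2.48-fold. Il15, which shares the chains Il2rb and Il2rg with IL-2, read 4.54, 4.53, 5.51 and 5.85 on the MSC arrays and 3.64 to 4.23 on the 9 SKP arrays. The groups did not overlap (-1.12, SE 0.24, adjusted p = 0.00426), and MSC arrays 3 and 4 were the higher pair. Without both of these the difference was -0.55 (adjusted p = 0.0462). By region, the facial call (-1.08, adjusted p = 0.0267) was lost in 9 of 25 alternatives, including without any facial array or MSC array 3 or 4 (0.0511 to 0.1055) and with the leukocyte covariate (0.284). The ventral call (-1.02, adjusted p = 0.0269) was lost in 8 of 25, including without any ventral array or MSC array 3 or 4 (0.056 to 0.1101).

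Il1b, the fever cytokine, was near background, at 4.25 to 4.69 on 8 SKP arrays, 5.92 on facial array 3 and 3.77 to 3.97 on the MSC arrays. The facial difference from MSCs was 1.09 (SE 0.29, adjusted p = 0.0225) and 0.61 without facial array 3. It was 0.12 with the leukocyte covariate (adjusted p = 0.914), and the facial call was lost in 6 of 25 alternatives, including without MSC array 4 (0.0529). The difference over all SKPs of 0.74 (SE 0.23, adjusted p = 0.0337) was lost in 11 of 24 alternatives, including each MSC array left out (0.0592 to 0.089), dorsal array 1 (0.0508), dorsal array 2 (0.0564) and ventral array 3 (0.0617). Its antagonist Il1rn split the MSC isolates, at 8.36, 7.68, 2.99 and 3.99, and the dorsal isolates, at 5.41, 7.18 and 3.38, and did not differ (-0.02, adjusted p = 0.988). Il33, an alarmin of the IL-1 family, split the same way, at 7.66, 6.07, 2.94 and 3.66 in MSCs and 6.40, 7.52 and 3.34 in dorsal SKPs (0.74, adjusted p = 0.593). In both genes the facial and ventral isolates stayed close together, at 5.44 to 6.38 for Il1rn and 5.56 to 6.26 for Il33.

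Il18, another IL-1 family cytokine, read 5.67, 4.01 and 7.35 on the facial arrays, 5.21, 2.79 and 2.52 on the dorsal arrays, 3.43, 3.46 and 4.23 on the ventral arrays and 2.43 to 2.77 on the MSC arrays. The facial difference from MSCs was 3.04 (SE 0.73, adjusted p = 0.0125), at least 3.10-fold against background. It was lost without facial array 3 (0.0529) and was -0.20 with the leukocyte covariate (adjusted p = 0.86). The decoy Il18bp, with group means of 6.12 to 7.24, passed in no comparison. Il11, a gp130 cytokine of stromal cells, had means of 4.87 to 5.41, and Il34, a ligand of the macrophage growth factor receptor, 4.42 to 5.01, and neither passed in any comparison.

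Among the chemokine receptors, Ccr1 and Cxcr4 were higher in SKPs. Ccr1, a receptor of Ccl3, Ccl5 and Ccl7, read 7.55, 7.38 and 4.91 on the dorsal arrays, 6.78, 7.53 and 8.15 on the facial arrays, 9.40, 9.36 and 9.62 on the ventral arrays, and 4.23, 3.51, 3.31 and 3.77 on the MSC arrays. No SKP array overlapped the MSC arrays, whose mean was at background, and the ventral arrays lay above all others. The difference over all SKPs was 4.15 (SE 0.43, adjusted p = 3.11e-05), at least 14.0-fold against background, and that of ventral SKPs 5.76 (SE 0.54, adjusted p = 2.05e-05). Dorsal minus ventral was -2.84 (SE 0.58, adjusted p = 0.0152), and it missed the threshold without ventral array 1 (0.0568) or ventral array 3 (0.0646). The mean of the leukocyte markers was 5.20 to 5.62 on the ventral arrays and 6.40 to 9.84 on the facial arrays. Of those markers, Cd68 read 8.82 to 9.36 and Cd53 6.80 to 7.33 on the ventral arrays. Their dorsal means were 7.41 and 4.93 and their facial means 10.28 and 8.13. Other markers went the other way, among them Lyz2, Mrc1 and Cybb. Their ventral means (6.09, 4.18 and 5.26) lay below their dorsal means (7.24, 5.70 and 6.28). With the marker mean as a covariate the facial difference of Ccr1 from MSCs was 2.13 (adjusted p = 0.132) and all SKPs differed by 3.28 (adjusted p = 0.00133).

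Cxcr4, the Cxcl12 receptor, read 6.83, 6.90 and 7.32 on the ventral arrays, 4.89, 5.32 and 6.19 on the dorsal arrays, 5.35, 5.48 and 7.57 on the facial arrays and 4.58 to 5.26 on the MSC arrays. The ventral arrays lay above all MSC arrays, and facial array 3 stood above them. The ventral difference from MSCs was 2.03 (SE 0.47, adjusted p = 0.00829), called in all 25 alternatives. The difference over all SKPs (1.22, SE 0.37, adjusted p = 0.0312) was lost without each MSC array (0.053 to 0.0954) and without ventral array 3 (0.0571), and with the leukocyte covariate (0.271). Ccr7, which guides cells along Ccl19 and Ccl21, read 5.999, 6.45 and 6.28 on the ventral arrays and 6.13, 6.04 and 5.78 on the facial arrays. It read 5.44 to 5.55 on the dorsal arrays and 5.13 to 5.98 on the MSC arrays. Facial and ventral arrays overlapped for Ccr7, and these regions did not differ in it by the test. Its ventral difference from MSCs was 0.71 (SE 0.18, adjusted p = 0.0125) and was 0.062 in adjusted p without ventral array 2. Ccr10 was level, with group means of 6.04 to 6.16. Cxcr1, a neutrophil receptor, was above background in facial SKPs only through facial array 3 (6.88, against 4.25 and 3.52 on facial arrays 1 and 2).

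The receptors of IL-13 differed from each other in pattern. Il13ra2, the decoy-type receptor, read 7.01, 8.26 and 6.51 on the dorsal arrays, 7.73, 7.45 and 6.25 on the facial arrays, 7.97, 8.15 and 7.41 on the ventral arrays, and 2.91, 2.60, 2.53 and 2.20 on the MSC arrays. The groups were separated by more than 3 units, with MSCs at background. SKPs exceeded MSCs by 4.86 (SE 0.33, adjusted p = 1.11e-06), at least 10.4-fold against background, and the regions did so by 4.70, 4.59 and 5.29. The signalling receptor Il13ra1 was above background everywhere and did not differ from MSCs by the test in any region. Its dorsal arrays read 8.04, 7.73 and 6.63, below the ventral 8.87, 8.65 and 8.85 (-1.33, SE 0.33, adjusted p = 0.0345). Il13ra1 did not pass without dorsal array 3 (0.0565), MSC array 2 (0.0505), or ventral array 1, 2 or 3 (0.118, 0.0756 and 0.115). Il4r, the chain it pairs with, exceeded MSCs by 0.76 in SKPs (SE 0.25, adjusted p = 0.0452). The call of Il4r was lost in 12 of 24 alternatives, with an adjusted p of 0.0188 to 0.719 over them, including without dorsal array 1 or 2, MSC array 3 or 4, or any ventral array (0.0602 to 0.144).

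In the IL-1 receptor family, the shared chain Il1rap was higher in SKPs, and the IL-33 receptor Il1rl1 (ST2) and the IL-36 receptor Il1rl2 were lower. Il1rap read 9.66, 9.65 and 9.61 on the ventral arrays, 8.40, 8.21 and 7.94 on the dorsal arrays, 8.16, 8.14 and 8.45 on the facial arrays, and 7.27, 7.31, 7.49 and 8.26 on the MSC arrays. The ventral isolates, which agreed to within 0.02 (SD, n = 3), lay above all other arrays. Over all SKPs the difference was 1.11 (SE 0.17, adjusted p = 0.000444). Facial minus ventral was -1.39 (SE 0.23, adjusted p = 0.00411) and dorsal minus ventral -1.46 (SE 0.23, adjusted p = 0.00415), each called in all 25 alternatives.

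Il1rl1 read 10.33, 11.08, 11.11 and 12.02 on the MSC arrays, 10.03, 11.40 and 10.39 on the facial arrays, 8.14, 7.84 and 8.05 on the ventral arrays, and 8.25, 7.08 and 3.72 on the dorsal arrays. Facial SKPs overlapped MSCs, and ventral and dorsal SKPs lay below both. The differences from MSCs were -4.78 in dorsal SKPs (SE 0.83, adjusted p = 0.00209), -3.12 in ventral SKPs (SE 0.83, adjusted p = 0.016) and -0.53 in facial SKPs, the last not called. The ventral call was lost without ventral array 2 (0.0551). Facial minus dorsal was 4.26 (SE 0.88, adjusted p = 0.042), and it was lost in 16 of 25 alternatives, among them without each facial array (0.0719 to 0.113), each ventral array (0.0707 to 0.072) and each MSC array (0.051 to 0.0644). Il1rl2 read 9.15, 8.53, 7.42 and 9.90 on the MSC arrays, 7.35, 5.996 and 4.39 on the dorsal arrays, 5.31, 6.52 and 6.40 on the facial arrays and 7.74, 7.07 and 7.56 on the ventral arrays. Its difference over all SKPs was -2.27 (SE 0.53, adjusted p = 0.00737), with some overlap between ventral SKPs and MSC array 3. Without facial array 1 the facial difference lost its call (0.0681). Il1r1, Il1rl2, Il1rl1 and Il18r1 follow one another on chromosome 9 in GRCr8. Il1r1, the IL-1 signalling receptor, was above background throughout and did not differ (0.53, adjusted p = 0.402), and Il18r1 was at background in every group.

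Other interleukin receptor chains also differed from MSCs. Il2rg, the common gamma chain, read 5.06, 5.33 and 5.92 on the dorsal arrays, 5.22, 4.43 and 5.87 on the facial arrays, 4.62, 4.49 and 4.70 on the ventral arrays and 3.31 to 3.72 on the MSC arrays, which were at background. The SKP arrays all lay above the MSC arrays (1.59, SE 0.23, adjusted p = 0.000308, at least 2.04-fold), and the difference in ventral SKPs was 0.0538 in adjusted p without ventral array 3 and that in facial SKPs 0.147 with the leukocyte covariate. Il11ra1, the IL-11 receptor, differed by 0.56 (SE 0.13, adjusted p = 0.00703), and Il17re, a receptor of the IL-17 family, by -0.77 (SE 0.26, adjusted p = 0.0479). The latter was lost in 17 of 24 alternatives, including without any array but dorsal array 3 and MSC array 4. Il1r2, the decoy receptor of IL-1, differed by 1.00 (SE 0.32, adjusted p = 0.0391) and Ccl28 by -0.26 (SE 0.08, adjusted p = 0.0333). Each was lost in 15 of 24 alternatives, including without 10 of the 13 arrays. Il10ra, the IL-10 receptor chain of leukocytes, was above background in facial SKPs alone, at 4.77, 4.62 and 6.47. It exceeded MSCs there by 1.52 (SE 0.35, adjusted p = 0.00969), by 0.93 without facial array 3, and by 0.30 with the leukocyte covariate (adjusted p = 0.77).

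The receptors of the gp130 group were present in every culture. Il6st read 11.09, 11.05 and 11.04 on the ventral arrays, 10.21, 10.53 and 10.08 on the dorsal arrays, 10.29, 10.73 and 10.52 on the facial arrays and 10.53 to 11.16 on the MSC arrays. Dorsal SKPs lay below ventral SKPs (-0.79, SE 0.17, adjusted p = 0.0196) and below MSCs (-0.60, SE 0.16, adjusted p = 0.0219). The former was lost without dorsal array 3 (0.0511) or ventral array 1, 2 or 3 (0.074, 0.0588 and 0.0694), and the latter without dorsal array 1 (0.0655), dorsal array 3 (0.0786) or MSC array 2 (0.0558). Il6r, the IL-6 binding chain, read 6.63, 6.59, 5.02 and 4.96 on the MSC arrays, again a high and a low pair. It passed in facial SKPs (1.38, SE 0.45, adjusted p = 0.0498) and ventral SKPs (1.35, SE 0.45, adjusted p = 0.0464), and over the alternatives the adjusted p was 0.00174 to 0.867 and 0.00167 to 0.326. Without single arrays the facial call was lost in 9 cases (0.06 to 0.197) and the ventral call in 8 (0.0559 to 0.126). Il10rb and Il17ra, with group means of 8.64 to 9.09 and 7.54 to 8.30, passed in no comparison.

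**Figure D3:**
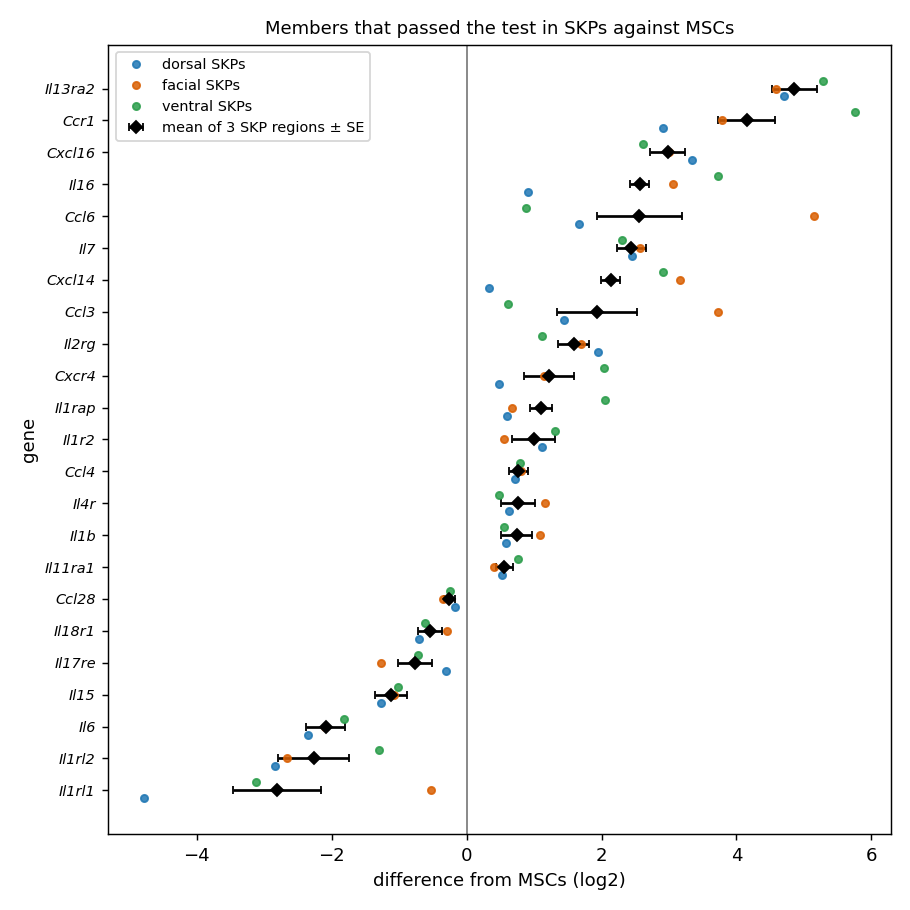
Log2 difference from MSCs (horizontal axis) of the 23 genes that passed the test between all SKPs and MSCs; coloured points are the 3 regions and black diamonds the mean of the regions ± SE. The regions lie close together for Il7, Il13ra2 and Ccl4 and far apart for Ccl6, Ccl3, Cxcl14, Il16 and Il1rl1.

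Between the SKP regions, 13 of the 110 genes passed in at least 1 of 3 pairs, against 10.11% of all genes. Facial and dorsal SKPs differed in 4 (3.64%, against 1.25% of all genes). Of these, 3 were higher in facial SKPs (0.793% of all genes were), namely Cxcl14, Il16 and Il1rl1, and 1 was lower (0.462%), Il1rapl1, which was at background. Facial and ventral SKPs differed in 4 (3.64%, against 6.60% of all genes). Ccl6 (4.27, SE 0.85, adjusted p = 0.0131) and Ccl3 (3.12, SE 0.81, adjusted p = 0.0405) were higher in facial SKPs (2.25% of all genes were), and Ccl22 and Il1rap lower (4.36%). Dorsal and ventral SKPs differed in 10 (9.09%, against 6.11% of all genes), of which 8 were lower in dorsal SKPs (3.76% of all genes were): Ccr1, Il16, Cxcl14, Ccl22, Il1rap, Il13ra1, Il6st and Ccr7. The other two, Il1rapl1 and Il17f, were higher (2.35% of all genes were) and at background. The arrays of the regions did not overlap for 18 of the 110 between facial and dorsal (17.4% of all genes), 29 between facial and ventral (36.4%) and 30 between dorsal and ventral SKPs (28.7%). These pairs share arrays with each other, so their lists are not independent.

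The region counts moved with single arrays. Facial against dorsal gave 8 without dorsal array 1 (1.5% of all genes). Facial against ventral gave 8 without dorsal array 3 (9.76%) or facial array 2 (4.94%), and 2 without ventral array 3 (2.72%). Dorsal against ventral gave 5, 6 and 3 without ventral arrays 1, 2 and 3 (2.3%, 3.21% and 2.25% of all genes). Cxcl14, Il16 and Il1rap kept their region calls without each single array. The call of Ccl6 between facial and ventral SKPs was lost without facial array 3 (0.0507), ventral array 1 (0.0554) or ventral array 3 (0.0587), and that of Ccl3 without 9 of the 13 arrays (0.052 to 0.135). With the leukocyte covariate these facial minus ventral differences were 1.85 for Ccl6 (adjusted p = 0.122) and 0.66 for Ccl3 (0.386). The call of Ccr7 between dorsal and ventral SKPs (-0.75, SE 0.19, adjusted p = 0.0425) was likewise lost without 9 arrays (0.0563 to 0.144).

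**Figure D4:**
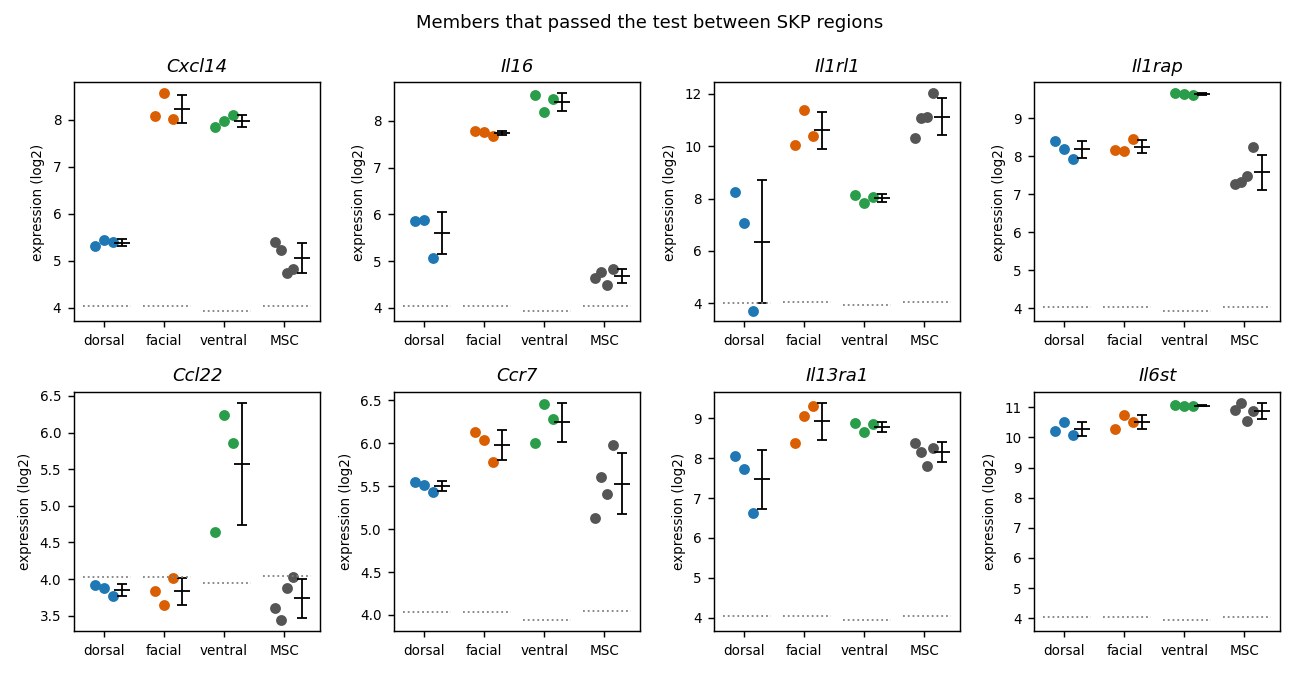
Log2 expression (vertical axes, each on its own scale) of 8 genes that passed between SKP regions; points are isolates, bars the group mean ± SD and dotted lines the background level. Cxcl14 and Il16 are low in dorsal SKPs, Il1rap and Ccl22 are high in ventral SKPs, and Il1rl1 is high in facial SKPs and MSCs.

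The spread between isolates was wider for these genes than for genes at large in every group. For dorsal, facial and ventral SKPs and MSCs in turn, the median SD of those above background was 0.33, 0.31, 0.16 and 0.30, against 0.23, 0.15, 0.11 and 0.19 over all genes above background. Dorsal array 3 lay at least 2-fold below the mean of dorsal arrays 1 and 2 for 18 of the 110 genes and at least 2-fold above it for 2 (18.2%, against 8.08% of all genes). The gaps were -4.60 for Ccl2, -4.13 for Cxcl12, -3.94 for Il1rl1, -3.82 for Ccl7, -3.62 for Il33 and -2.92 for Il1rn. It was the lowest dorsal array for 63 of the 110 genes (57.3%), and for 35.9% of all genes. The stromal and SKP markers were low on the same array, and their part in these gaps was not tested.

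Facial array 3 lay at least 2-fold above the mean of facial arrays 1 and 2 for 16 of the 110 genes and below it for 1 (15.5%, against 3.44% of all genes). The gaps were 3.00 for Cxcr1, 2.51 for Il18, 2.45 for Il7r, 2.17 for Ccl3, 2.16 for Cxcr4, 2.10 for Ccl6, 1.78 for Il10ra and 1.65 for Ccl9. This array carried the highest leukocyte markers, with Csf1r at 10.50 and Cd163 at 8.09, where facial arrays 1 and 2 read 7.37 and 5.56, and 3.94 and 3.74. The leukocyte covariate was applied to differences between groups and not to these gaps. Its marker mean also separated facial SKPs (6.40 to 9.84) from MSCs (4.06 to 4.74), so in those fits the 2 cannot be told apart. The part of leukocytes in the gaps was not tested. MSC arrays 1 and 2 exceeded MSC arrays 3 and 4 at least 2-fold for 9 of the 110 genes and lay below them for 1, Il15 (9.09%, against 4.91% of all genes). The gaps were 5.14 for Ccl7, 4.80 for Ccl2, 4.53 for Il1rn, 3.57 for Il33, 2.07 for Cxcl6, 1.62 for Il6r, 1.51 for Cxcl13, 1.30 for Cxcl3 and 1.11 for Cxcl1. Ventral isolates were the closest by median SD. Between ventral array 3 and the mean of ventral arrays 1 and 2, no gene of the set was 2-fold apart (0.20% of all genes were). Ventral arrays 1 and 2 were not contrasted in this way, and Ccl22 read 4.64 on ventral array 1 against 6.23 and 5.85 on ventral arrays 2 and 3.

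**Figure D5:**
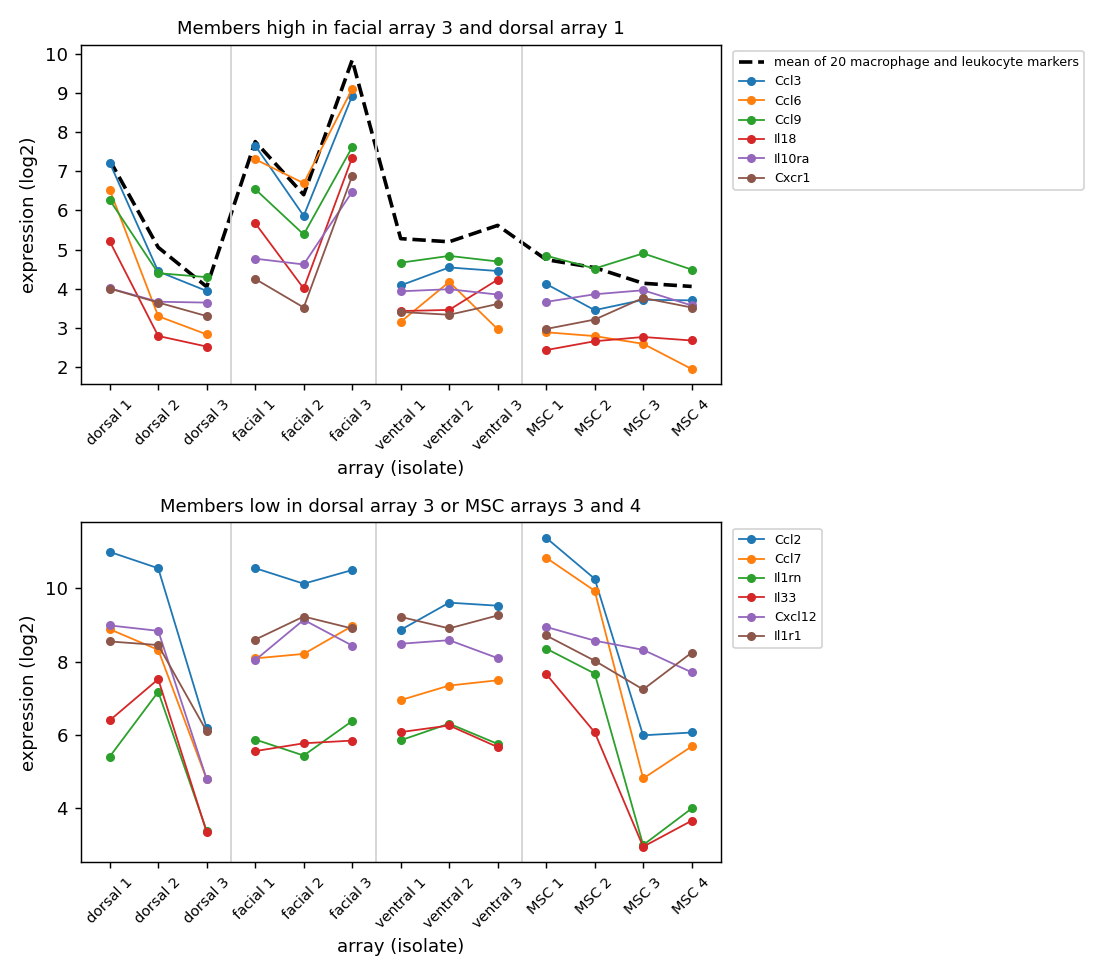
Log2 expression (vertical axes) by array. The upper panel shows 6 genes high on facial array 3, with the mean of 20 macrophage and leukocyte markers as a dashed line. Ccl3, Ccl6, Ccl9 and Il18 were also high on dorsal array 1, where Il10ra (4.01) and Cxcr1 (4.00) were at background. The lower panel shows 6 genes low on dorsal array 3 or MSC arrays 3 and 4. Lines join arrays of a group; Ccl2, Ccl7, Il1rn and Il33 are low on dorsal array 3 and on MSC arrays 3 and 4, and Cxcl12 on dorsal array 3 alone.

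Genes of the same pathways outside the symbol rule were taken from a list and read in the same fit. Of 9 measured genes of the wider chemokine system, 1 passed between SKPs and MSCs. This was Ackr3, the atypical receptor that removes Cxcl12, which read 5.497 to 6.14 on the 9 SKP arrays and 10.16, 10.23, 10.98 and 9.997 on the MSC arrays (-4.50, SE 0.17, adjusted p = 1.67e-08, 22.7-fold lower). The groups were far apart, whereas Cxcl12 itself did not differ by the test. Of 8 measured ligands and receptors of the IL-6 family, such as Lif and Osmr, 0 passed by limma in SKPs against MSCs, and 0 had an unadjusted p under 0.05. Of 15 measured genes of receptor signalling, 5 were higher (Irak1, Jak1, Myd88, Socs3 and Stat5a) and 1 lower (Irak4), where 13.1% of all genes were higher and 12.2% lower.

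Of 15 measured NF-kappaB and inflammatory target genes, 6 were higher over the mean of the SKP regions (Bcl3, Birc3, Nfkb1, Nfkb2, Nfkbia and Vcam1) and 1 lower (Icam1), against the same shares of all genes. Vcam1, an adhesion molecule for leukocytes, read 7.43, 9.70 and 8.97 on the facial arrays, and its means were 4.22 in dorsal SKPs, 5.21 in ventral SKPs and 4.53 in MSCs, so that it passed against MSCs in facial SKPs (4.17, SE 0.57, adjusted p = 0.000409) and in neither other region. Nfkbia, the NF-kappaB inhibitor that NF-kappaB itself induces, read 10.04, 9.23 and 8.69 on the dorsal arrays, 9.06, 8.47 and 9.52 on the facial arrays, 8.28, 8.47 and 8.47 on the ventral arrays, and 7.01, 7.31, 6.88 and 6.79 on the MSC arrays. All SKP arrays lay above all MSC arrays (1.92, SE 0.23, adjusted p = 9.79e-05). Socs3, an inhibitor of cytokine receptors that use gp130, differed by 1.26 (SE 0.38, adjusted p = 0.0302) and missed the threshold without MSC array 3 (0.109), MSC array 4 (0.1004) or ventral array 2 (0.0548). The medians of the 4 lists were 0.06, 0.02, 0.14 and 0.29, against -0.02 over all genes.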

How the data were processed

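RNA was extracted with Trizol and RNeasy columns, amplified, labelled with biotin and hybridised, per the labels' protocols. On a log2 scale, the values deposited by the authors come from RMA in Affymetrix Expression Console at the level of core genes, per the labels and the submitters' processing notes. Those notes also name limma, and no version is given in the sources used here. RMA subtracts background, makes the distributions of the arrays equal and summarises probes, so a value is relative to its own probe set, low values are compressed, and a difference near background is understated. Arrays have no read depth, and precision is limited by how many there are.

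Of 29215 probe sets, 15310 carried 1 gene symbol in the platform annotation, 323 several and 13582 none. For each of the 14506 genes the probe set with the highest mean over the 13 arrays was kept. None of the 110 genes studied had more than 1 probe set, 1 further probe set with several symbols was left out, and all 110 were found by Entrez identifier in RefSeq GRCr8 under the same symbol. The genes, gene lists and tests were chosen with earlier results of these data known. Of the 30 genes set out to be named in any case, 1 is not analysed here.

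The deposited values were used without further normalisation. limma 3.58.1 (lmFit and eBayes, two-sided, R 4.3.3) fitted group means to the 13 arrays together, and p-values were adjusted over 14506 genes by the Benjamini-Hochberg method. Genes were named if they passed with a log2 difference of at least 1 and lay above background on the higher side, if they were among the widest in spread or highest in their role, or if they stood on a fixed list. Others named were chosen after their values were seen. Where 1 side was at background, the fold is given against the background level of that side as "at least". The replicate numbers did not pair the arrays: of 18 pairs with the same number, 1 correlated above 0.1 in its deviations from the group means. Alternatives were a replicate block, centring, filters, other choices of probe set, variance moderation, array weights, only the groups compared, arrays left out, and the mean of 20 leukocyte markers as a covariate. The motif letters were chosen after the differences were known.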

Additional observations from a re-analysis of the deposited data

Results flagged for a closer look

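Il6 on MSC array 2 (4.16) stood apart from the other 3 MSC arrays, which read 5.52 to 5.80. The gap to its nearest neighbour was 0.831 of the range of the group, just above Dixon's critical value for 4 samples. Of 40 genes tested in the MSC arrays this was the only such array, and chance alone picks out about 1 in 20.

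Differences between SKP regions, each tested directly in the limma fit over all arrays, were found in the following genes. Between facial and dorsal SKPs they were 2.83 for Cxcl14, 2.14 for Il16 and 4.26 for Il1rl1 (facial higher). Between facial and ventral SKPs they were 4.27 for Ccl6 and 3.12 for Ccl3 (facial higher), and -1.74 for Ccl22 and -1.39 for Il1rap (facial lower). Between dorsal and ventral SKPs, with dorsal lower, they were -2.58 for Cxcl14, -2.81 for Il16, -2.84 for Ccr1, -1.72 for Ccl22, -1.46 for Il1rap and -1.33 for Il13ra1. Cxcl14, Il16 and Il1rap passed in all 25 alternatives of each pair, and Ccl22 in 24 and 23. The others passed in 21 of 25 (Ccl6), 11 (Ccl3), 9 (Il1rl1), 22 (Ccr1) and 17 (Il13ra1).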

How the results depend on the processing

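Of the 98 calls of these genes over the 7 comparisons, 41 passed under every alternative and 57 without each single array, and 2037 of 2420 alternative values kept their direction and their side of the threshold. The replicate block gave 16, 14, 16 and 15 genes for all, dorsal, facial and ventral SKPs against MSCs. Of all genes, 19.1%, 12.4%, 14% and 19.6% passed. For facial against dorsal, facial against ventral and dorsal against ventral SKPs the block gave 3, 3 and 9. Of all genes, 0.731%, 4.67% and 3.9% passed. MSC array 4 is alone in its block and adds nothing to that fit. Of 13 arrays, 6 correlated best with an array of their own number. The leukocyte covariate gave 13 for all SKPs (16.3% of all genes) and 6 for facial SKPs (5.76%) against MSCs. It gave 2 each for facial against dorsal (0.241%) and facial against ventral SKPs (2.18%). With only the groups compared in the fit, facial against dorsal SKPs gave 2 (0.296% of all genes). Facial against ventral SKPs gave 12 (13.3%) and dorsal against ventral SKPs 4 (2.57%). Facial against ventral SKPs also gave 7 with centred arrays (7.22% of all genes) and 15 with array weights (16.8%). Without dorsal array 3 and facial array 3 together this pair gave 10 (6.17%). Leaving out single arrays gave 15 to 26 for all SKPs against MSCs (20.4 to 27.7% of all genes). For dorsal SKPs it gave 12 to 16 (13.2 to 15.9%) and for facial SKPs 15 to 26 (13.1 to 22.7%). For ventral SKPs it gave 14 to 23 (17.5 to 28.1%). Facial against dorsal SKPs gave 3 to 8 (0.648 to 1.78%) and facial against ventral SKPs 2 to 8 (2.69 to 9.76%). Dorsal against ventral SKPs gave 3 to 13 (2.25 to 6.46%). The cause was not tested. The count above background moved little with the 25th percentile of all genes as the level (58, 63, 63 and 56).

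Some differences from MSCs changed sign, among them 2 calls. With the leukocyte covariate they were -0.20 for Il18 and -0.43 for Ccl9 in facial SKPs, and over all SKPs -0.42 for Ccl2, -0.035 for Il1r1, -0.22 for Il33 and -0.038 for Il18. Without MSC arrays 3 and 4, Ccl2 differed by -1.17 and Il33 by -1.04; without MSC arrays 1 and 2, Cxcl12 by 0.14, Ccl7 by 2.43 and Il1rn by 2.24. Without dorsal array 3 and facial array 3 these were 0.24 for Cxcl12, 0.19 for Ccl7 and 0.22 for Il1rn. Single arrays left out gave -0.47 to 0.23 for Cxcl12, -1.15 to 0.86 for Ccl7 and -0.95 to 0.84 for Il1rn over all SKPs.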

Other observations

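Some members above background passed in no comparison and were not described above. Ccl27, the skin-homing chemokine, read 5.18 to 5.91 over all 13 arrays, and its receptor Ccr10 read 5.92 to 6.31. Both were thus above background on every array of every group, with group means of 5.36 ± 0.07, 5.40 ± 0.22 and 5.67 ± 0.23 (SD, n = 3) for Ccl27 in dorsal, facial and ventral SKPs and 5.36 ± 0.09 (SD, n = 4) in MSCs. Ccl19, a ligand of Ccr7, read 4.14 to 4.78, and Ccl5 4.10 to 4.85. Cxcl10, an interferon-induced chemokine, read 4.27 to 4.80, and Cxcl17 4.88 to 5.48.

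Cxcl13, the B cell attractant, was above background in ventral SKPs, at 4.43, 4.15 and 5.15, and in MSCs only through MSC array 1, at 6.29 against 3.49 to 4.19 on MSC arrays 2, 3 and 4. It passed in no comparison. Il21r and Il7r were above background in facial and ventral SKPs and not in dorsal SKPs or MSCs. Il21r read 4.60 on facial array 3, 3.81 and 3.89 on the other facial arrays, and 3.96, 4.55 and 4.44 on the ventral arrays. Il3ra (5.10 to 6.16), Il27ra (4.28 to 5.23), Il12rb1 (4.30 to 4.95), Il17b (4.52 to 5.35), Il23a (4.25 to 5.34) and Il9 (4.26 to 4.94) stayed within the ranges given, over all 13 arrays, and none of them passed in any comparison.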
